A study of Mus musculus with 12 samples.

Results

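In B16F10 cells, an established mouse melanoma line, 24 protein-coding genes fell to between 38.2% and 49.8% of their control level when Ep300 and Crebbp were both knocked out, while staying within 0.3 of control on a log2 scale in either single knockout. They were picked from a gene-level count table of RNA sequencing. Counts were turned into CPM (counts put on the same total for every library) with TMM factors, which set a scale for each library from the bulk of genes, and each group was given L, the log2 of its mean CPM plus 0.5. A gene was kept when its control mean reached 5 CPM, its L in double knockout stood at least 1 below control, and its L in each single knockout differed from control by under 0.3. This left 24 of the 9472 protein-coding genes at 5 CPM or more in control (0.253%), and 24 of the 362 of these that fell by 1 or more in double knockout. All 24 also passed the filter on low counts used for the tests. Because the rule used the mean levels of all 4 groups, the values below that compare the members with control are a description and carry no test.

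The 12 libraries formed 4 groups of 3, all of B16F10 cells in DMEM with serum. Control had the wild-type genotype, and the other groups were labelled as knockouts of Ep300, of Crebbp and of both genes. Clones or pools, and separate or shared cultures, are not stated in the labels, so the spread between the 3 libraries of a group may be technical. Libraries held 64257251 to 85604243 counts, and the biological coefficient of variation was 9.46%. The mRNA of the targeted genes gave only a partial check of the labels. Ep300 mRNA was 94.4 ± 7.72 CPM in control (SD, n = 3), 85.1 ± 8.80 in Ep300 knockout and 148 ± 11.1 in double knockout. Crebbp mRNA was 64.7 ± 7.00 CPM in control, 34.5 ± 3.60 in Crebbp knockout and 64.0 ± 6.13 in double knockout. In the libraries labelled double knockout, Ep300 mRNA was thus above control and Crebbp mRNA differed from control by less than the spread between replicates. Group names below are those of the labels. An edit can leave the mRNA of a gene in place, and protein was not analysed here. All 10 melanoma markers were present, at a summed 25744 CPM in control and 9103 in double knockout. Markers of fibroblasts summed to 35.8 to 53.1 CPM over the 4 groups, with 4 of 10 over 1 CPM in a group, and those of immune cells, endothelium and epithelium to 0.142 to 6.95 CPM, with Adgre1, Tie1, Krt18 and Krt14 at 0. Histone genes without poly(A) tails summed to 1724 to 1982 CPM in the double-knockout libraries and 2422 to 3299 in the other 9, with 9 of 10 genes above 1 CPM and Hist1h1b at 0. The part of these differences in the results was not tested.

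The proteins p300 (from Ep300) and CBP (from Crebbp) are close paralogs that transcription factors recruit to enhancers and promoters, where they acetylate histones. They share most of their domains and many target genes, and in pigment cells they act as coactivators of MITF, the factor that drives the melanocyte programme. MITF and the MYC partner MAX belong to factor families that read E-boxes, short motifs with the core CANNTG.

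The name under which these genes were grouped, falling only after both losses, did not match the data in full. Every one of the 24 lay below control in Ep300 knockout as well, with a median L difference of -0.24 (range -0.30 to -0.02), where the median over all 9472 genes was -0.01 and 53.1% of genes lay below control. In Crebbp knockout 22 of 24 lay below control, with a median of -0.17 (range -0.29 to 0.09), against a median of 0.00 over all genes and 48.8% below. The rule allowed both signs, but all these differences share the control mean that the rule used, so they are not independent of the choice. Most of the other genes that fell in double knockout also lay below control in Ep300 knockout, so this sign is not particular to the members. In Ep300 knockout 17 members were already past -0.2, and in Crebbp knockout 11 were. Only Ptgds, Lrrc75b, Syngr1 and Dnph1 stood above -0.2 in both single knockouts, and only Ptgds lay within 0.1 of control in both. The genes are therefore called here the genes with small single-knockout changes and a double-knockout fall of 1 or more. Their falls were not the deepest of the 362 falling genes. Those reached -3.30 (Enpp2), against -1.38 for Chmp6, the deepest of the members.

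**Figure D1:**
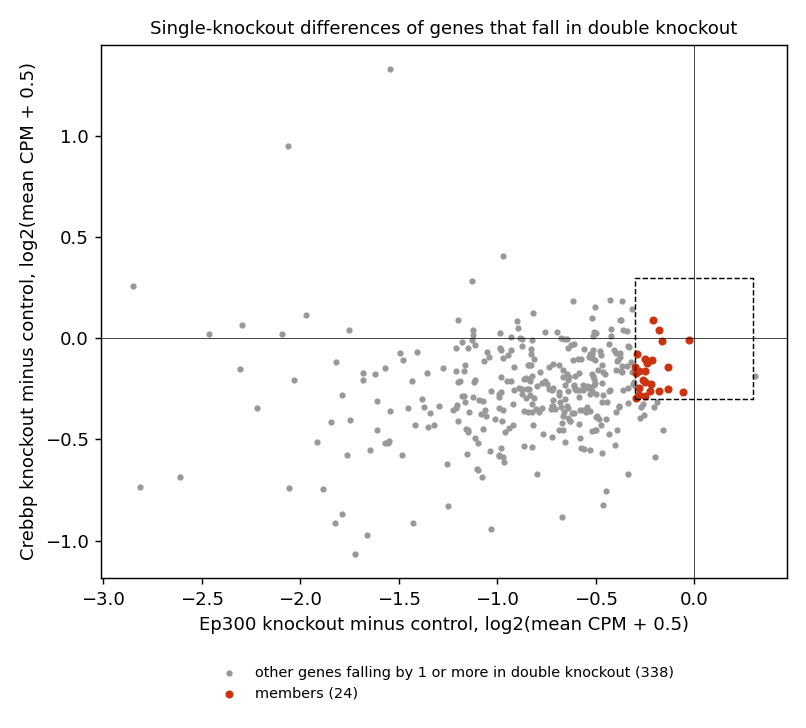
Each point is 1 of the 362 protein-coding genes that fell by 1 or more in double knockout, placed by its L difference from control in Ep300 knockout (horizontal axis, log2) and in Crebbp knockout (vertical axis, log2). The dashed square marks the limits of 0.3, and the 24 members, in red, fill its left side, since all 24 lie below 0 on the horizontal axis.

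Among the 362 falling genes, 191 were at or past -0.3 in Ep300 knockout and within 0.3 in Crebbp knockout, 135 were past it in both single knockouts, and 8 were past it in Crebbp knockout only. Another 4 were past 0.3 on the higher side in a single knockout, 1 without Ep300 and 3 without Crebbp. The 24 members made up 6.63% of the falling genes. Under the mirrored rule, 6 of 243 genes that rose by 1 or more in double knockout stayed within 0.3 in both single knockouts. Near the limit for the fall, Cops9 (-1.003) and Wsb2 (-1.01) were just inside, and Wrb (-0.99) and Slc25a33 (-0.98) just outside. Near the Ep300 limit, Tecpr1 and Trim63 (both -0.30) were inside, while Prodh and Tmcc1 (both -0.30) fell outside in the third decimal. Near the Crebbp limit, Cops9 (-0.29) and Timm10b (-0.28) were inside, and Fkbp11 (-0.32) and Ubl3 (-0.33) outside.

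Upstream sequence of 250 bases before a listed start was found in the RefSeq promoter table (GRCm38.p6, which has the mm10 coordinates) for 19 of the 24 members and 7717 of the 9472 genes. The listed start nearest the annotated one was taken, with no limit on distance. The windows of Adamts20, Ptgds and Timm10b lie inside the annotated gene, and some others reach into it. The Adamts20 window ends at 94404600, where the annotated start on the minus strand is 94465418. Of 16 motifs searched on both strands, 2 E-box forms are shown because of their place in pigment-cell promoters: CACGTG, read by MITF and by MYC and MAX dimers, and TCATGTG, the core of the M-box of pigment genes. They were picked after the members were known. CACGTG was present in 3 of 19 members (15.8%) against 9.04% of all genes, and TCATGTG in 2 of 19 (10.5%) against 1.66%. The windows of H2afz, Mlph, Sec61b and Trim63 are printed 5′ to 3′, with the motif in capitals, and Dnph1 was the third with CACGTG.
H2afz chr3:137864237-137864486 plus strand: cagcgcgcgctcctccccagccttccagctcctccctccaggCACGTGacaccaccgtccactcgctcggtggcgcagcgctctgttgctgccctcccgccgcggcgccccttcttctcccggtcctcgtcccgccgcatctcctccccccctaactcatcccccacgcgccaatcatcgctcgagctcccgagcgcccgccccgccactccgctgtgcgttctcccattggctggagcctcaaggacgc
Mlph chr1:90914850-90915099 plus strand: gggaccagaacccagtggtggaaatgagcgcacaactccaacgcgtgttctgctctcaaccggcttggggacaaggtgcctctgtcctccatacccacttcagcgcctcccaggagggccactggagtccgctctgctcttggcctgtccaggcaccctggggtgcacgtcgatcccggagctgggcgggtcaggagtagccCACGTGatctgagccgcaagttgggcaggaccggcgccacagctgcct
Sec61b chr4:47474411-47474660 plus strand: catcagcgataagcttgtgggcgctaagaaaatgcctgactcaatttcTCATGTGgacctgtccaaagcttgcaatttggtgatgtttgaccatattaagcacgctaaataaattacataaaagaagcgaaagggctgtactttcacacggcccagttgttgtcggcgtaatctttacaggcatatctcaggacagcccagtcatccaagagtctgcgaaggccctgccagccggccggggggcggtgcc
Trim63 chr4:134314870-134315119 plus strand: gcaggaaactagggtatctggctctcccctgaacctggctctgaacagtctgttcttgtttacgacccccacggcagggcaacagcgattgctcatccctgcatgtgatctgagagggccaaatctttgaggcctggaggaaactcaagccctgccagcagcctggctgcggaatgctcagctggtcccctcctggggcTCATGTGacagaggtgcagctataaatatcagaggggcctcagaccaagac
The AP-1 motif TGANTCA was in 3 members (Ptgds, Cav2 and Sec61b; 15.8% against 3.55%), and the GC box GGGCGG in 10 (52.6% against 63.0%). CCAAT was in 9 (47.4% against 37.8%), and the CRE half-site TGACG in 3 (15.8% against 29.6%). The TATA box TATAAA was in 3 (15.8% against 5.65%), and the ETS motif CCGGAAG in 1 (5.26% against 16.4%). The E-boxes were thus not alone in differing from the share over all genes. The windows had a median GC content of 62.0% against 60.4% over all genes, and a median of 16 CG pairs against 17. With 19 windows, 1 gene moves a share by more than 5 points, and a match is a description of the letters only.

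Across the 24 members the median L difference in double knockout was -1.08 (range -1.38 for Chmp6 to -1.003 for Cops9), against -0.01 over all 9472 genes. The sum of both single-knockout differences had a median of -0.43 (range -0.59 to -0.03). The double-knockout difference minus that sum had a median of -0.68 (range -1.19 for Ptgds to -0.41 for Cops9), and the rule itself fixes this difference at -0.4 or lower. In all 24 the 3 double-knockout libraries lay below all 9 others, which held for 16.4% of tested genes. All 3 Ep300-knockout libraries lay below the 3 controls for 7 members (14.6% of tested genes), and all 3 Crebbp-knockout libraries for 5 (9.61%). By the edgeR quasi-likelihood test with Benjamini-Hochberg adjustment over 18434 genes, 24 members were called lower in double knockout, where 24.6% of tested genes were. Called lower were 5 members in Ep300 knockout (8.83% of tested genes) and 0 in Crebbp knockout (1.61%). At an unadjusted edgeR p under 0.05 the counts were 10 in Ep300 knockout and 8 in Crebbp knockout. DESeq2 called 7 and 2, and limma-voom 7 and 0. Shares over all tested genes are not given for these readings. A double-knockout change lower than the sum of both single changes, the test beyond additivity, was called for 21 members (4.96% of tested genes). Since these contrasts chose the members, nothing is read from these counts. In bulk RNA, less RNA per cell and fewer cells that make it cannot be told apart.

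The fall depended in size on how libraries were scaled. Plain CPM, without TMM factors, moved the median of all 9472 genes in double knockout from -0.01 to 0.22, and the members' median from -1.08 to -0.84. The rule then chose 14 genes, of which 4 (Adamts20, Chmp6, Emp3 and Syngr1) were among the 24. Of the genes called in double knockout, 49.9% were lower with TMM (4542 lower and 4560 higher) and 27.3% with plain CPM (2616 lower and 6955 higher). All double-knockout changes here are relative to the bulk of genes.

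**Figure D2:**
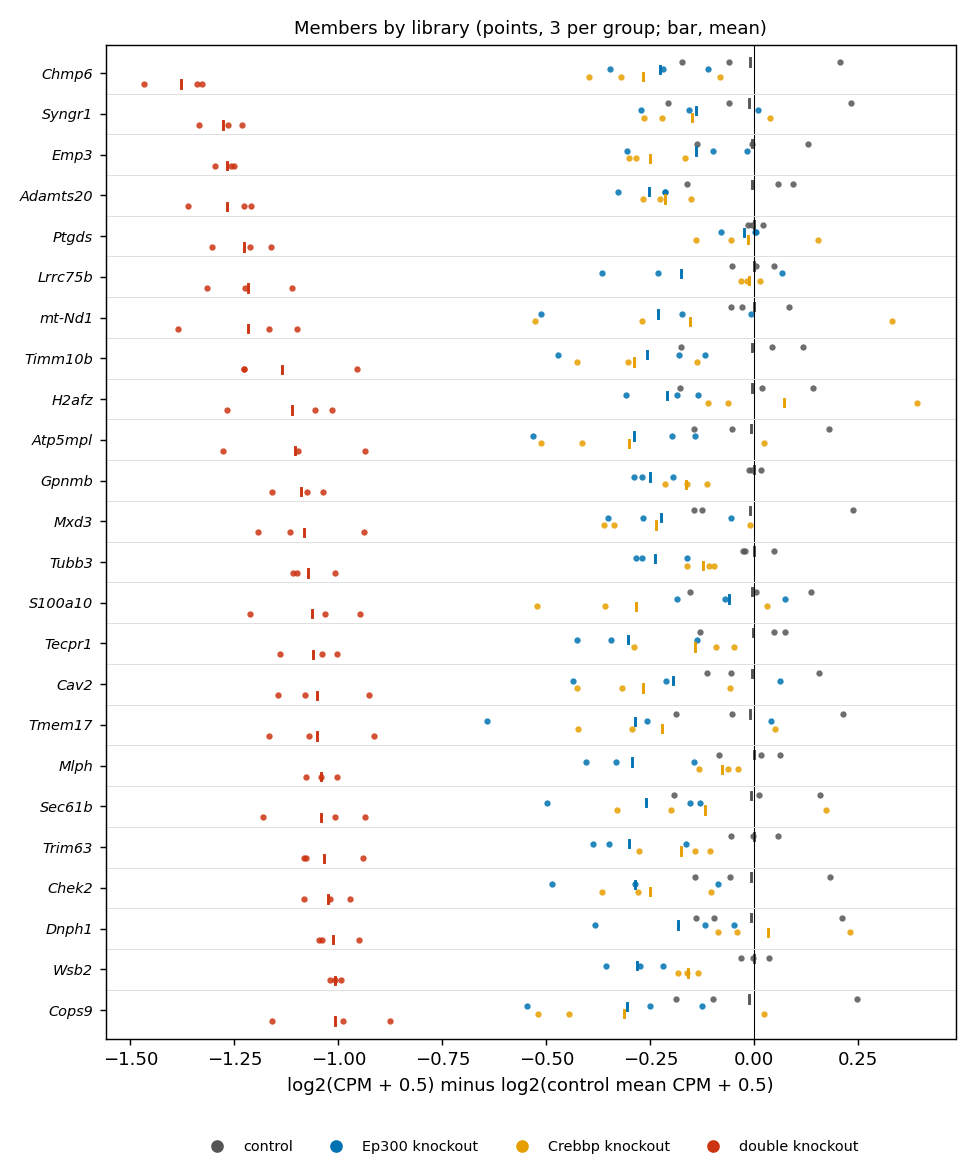
Each row is a member, each point a library (3 per group) and each bar the mean of its group's points, on the scale log2(CPM + 0.5) minus the log2 of the control mean CPM plus 0.5. The double-knockout points lie between -1.47 and -0.88, left of every other library in all 24 rows, while the single-knockout points scatter between -0.64 and 0.39.

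Libraries of a group differed in how far the members moved. Control replicate 2, Ep300-knockout replicate 3 and Crebbp-knockout replicate 3 stood apart in their groups. Their chi-square per gene, a distance between 2 libraries, was 50.6 to 129 within their groups. Between the remaining libraries of those groups it was 10.3 to 20.1. The median gene in the shortest quartile of exon length lay at 0.12, -0.12 and 0.06 from the control mean in these 3. In the rest of those groups it lay at -0.09 to 0.02. The median member in the 3 Crebbp-knockout libraries lay at -0.23, -0.29 and -0.04 from the control mean. Replicate 3 of this group also had the highest share of counts in mitochondrially encoded mRNAs, 6.30% against 4.51% and 3.80% in replicates 1 and 2. Without that library the members' median in Crebbp knockout was -0.25, and 14 of 24 stayed within 0.3. In Ep300 knockout the medians were -0.17, -0.19 and -0.31. Without replicate 3 the group's median was -0.16, and 20 of 24 stayed within 0.3. The controls stood at -0.14, 0.13 and 0.01, and the double-knockout libraries at -1.08, -1.17 and -1.09, below those of the other 9.

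When each of the 12 libraries was left out in turn, 6 members met the rule every time: Gpnmb, H2afz, Lrrc75b, Ptgds, Syngr1 and Tubb3. Another 10 met it 9 to 11 times, and Cops9 the fewest times, 5. A further 29 genes met the rule in at least 1 of these runs. The rule was also applied to 2 replicate numbers of each group and its genes read in the libraries left out. Those libraries gave the rule no means, but the TMM factors and the filter on low counts came from all 12. It chose 26, 19 and 18 genes with replicate 1, 2 and 3 held out. In the held-out libraries all 63 readings lay below control in double knockout, with medians of -1.02, -1.31 and -1.08, and 41 of 63 (65.1%) were again at -1 or lower. Over all 9472 genes the held-out medians in double knockout were 0.01, -0.03 and 0.00. Other falling genes were not read in this way, so nothing particular to the members is read from this. The lists overlap, so the 63 readings are not of 63 separate genes. Since replicates may be technical, the readings do not show how separate cultures would behave. For the single-knockout limits, 13 of 26, 13 of 19 and 7 of 18 genes stayed within 0.3 of held-out control in Ep300 knockout, and 25, 11 and 16 did in Crebbp knockout. All conditions together were met by 4, 6 and 6 genes. Median held-out differences in Ep300 knockout were -0.22, -0.26 and -0.35. Ptgds was chosen each time and read -1.15, -1.30 and -1.23 in the held-out double knockouts, with single-knockout readings between -0.13 and 0.13.

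**Figure D3:**
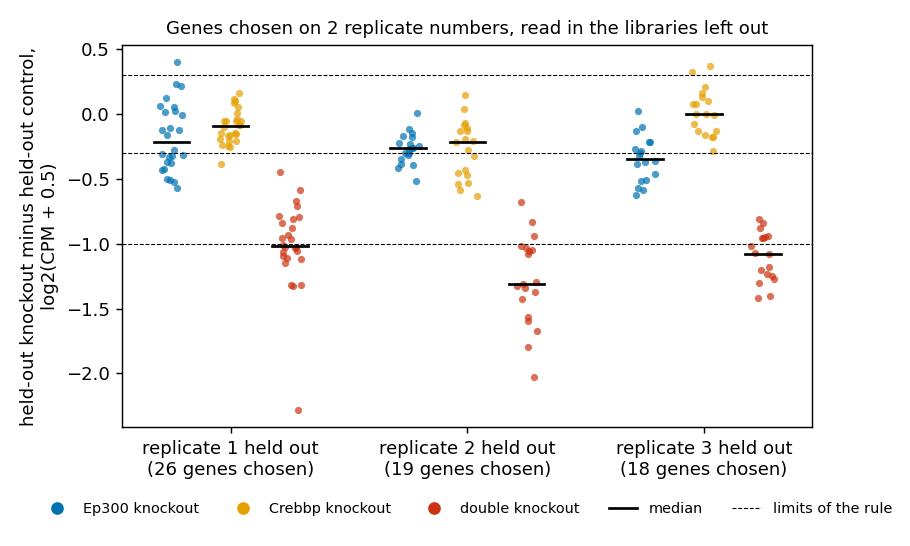
Points are genes chosen by the rule on 2 replicate numbers, plotted by their held-out knockout minus held-out control difference on the log2(CPM + 0.5) scale, for each replicate held out (26, 19 and 18 genes). Black bars are medians and dashed lines the limits of the rule, and the double-knockout points all lie below 0 around medians of -1.02, -1.31 and -1.08.

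The members that serve mitochondria were mt-Nd1, Atp5mpl and Timm10b. Positions here and below are those of a GENCODE annotation on mm10. The gene mt-Nd1 (ENSMUSG00000064341, chromosome M, 2751 to 3707, plus strand) is encoded in mitochondrial DNA and makes a core subunit of complex I, the NADH dehydrogenase of the respiratory chain. Its control libraries held 4442, 4359.9 and 4804 CPM, Ep300 knockout 4509, 4022 and 3179, Crebbp knockout 3764, 3148 and 5709 and double knockout 2019, 1736 and 2117. The 3 double-knockout libraries were the lowest of the 12, and the Crebbp-knockout libraries spread from below every control to above every control. Its L differences were -0.22 without Ep300, -0.11 without Crebbp and -1.21 without both. Atp5mpl, a small membrane subunit of ATP synthase (ENSMUSG00000021290, chromosome 12, 111961375 to 111966977, minus strand), held 495, 620.5 and 527 CPM in control, 496, 477 and 379 in Ep300 knockout, 411, 383 and 556 in Crebbp knockout and 286, 226 and 256 in double knockout. Its single-knockout libraries overlapped the controls, and its difference in either single knockout was -0.28. Timm10b, a small chaperone of protein import into the inner membrane, went from 15.7 ± 1.66 CPM in control to 6.89 ± 0.826 in double knockout (SD, n = 3), with 13.1 ± 1.71 and 12.8 ± 1.34 in the Ep300 and Crebbp knockouts.

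These 3 genes were part of broader falls, counted over sets that were written after the members were known. Over all tested genes 24.6% were called lower in double knockout, 8.83% in Ep300 knockout and 1.61% in Crebbp knockout. Against the sum of the single changes 4.96% were. All 13 mitochondrially encoded mRNAs, a set made after their values had been seen, were called lower in double knockout (median log2 change -0.69), with mt-Nd1 among them. In Ep300 knockout 1 of 13 was called lower (median -0.03), and in Crebbp knockout 0 were called (median 0.00), also at an unadjusted edgeR p under 0.05 and by DESeq2 and limma-voom. Without replicate 3 of Crebbp knockout, 1 of the libraries that stood apart, the median L difference of the 13 in that group was -0.30. Against the sum of the single changes, 5 of 13 were called lower, mt-Nd1 included. The largest fall was in mt-Nd3, a complex I subunit outside the rule, at -1.49 ± 0.13 (SE, n = 3, edgeR adjusted p = 2.95e-07). In Ep300 knockout mt-Nd3 differed by -0.47 ± 0.13 (edgeR adjusted p = 0.0239). Shares of all counts in these mRNAs were 3.00% to 3.59% in the double-knockout libraries and 3.80% to 6.30% in the other 9. Of 15 tested nuclear ATP synthase subunits, 13 were lower in double knockout (median -0.58). In Ep300 knockout 0 were called lower by edgeR, unadjusted p included, and by DESeq2, and in Crebbp knockout edgeR called 0, with 2 at an unadjusted p under 0.05 and 1 by DESeq2. Of 45 nuclear genes named Nduf, complex I subunits and assembly factors, 30 were lower and 2 higher (median -0.40; 24.7% of tested genes were higher in double knockout). Of 14 genes of the inner-membrane import machinery, 8 were lower and 1 higher. Of 96 genes named Rps or Rpl, which hold no member and are cytosolic ribosomal proteins beside some S6 kinases, 80 were lower and 6 higher (median -0.61), and 1 was lower in Ep300 knockout. With plain CPM, 12 of 13 mitochondrially encoded mRNAs and 9 of 15 ATP synthase subunits were lower in double knockout. So were 16 of 45 Nduf genes (6 higher), 6 of 14 import genes (1 higher) and 67 of 96 Rps or Rpl genes (7 higher). Over all 18434 tested genes plain CPM called 2616 lower and 6955 higher. After the correction for exon length and GC content given below, median L differences in double knockout were -0.52, -0.48, -0.29, -0.43 and -0.54, in the same order. The whole of this group of sets was picked for its members or its values, out of 30 lists, 30 families and 19 such sets counted.

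**Figure D4:**
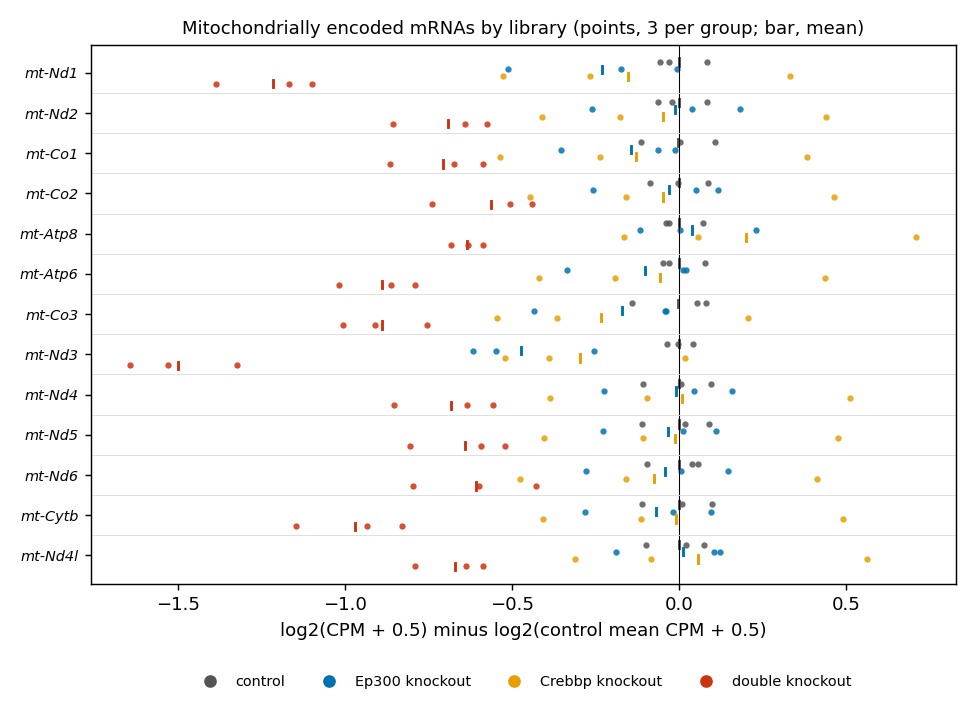
Rows are the 13 mitochondrially encoded mRNAs, points are libraries (3 per group) and bars are means of the points, on the scale log2(CPM + 0.5) minus the log2 of the control mean CPM plus 0.5. Double-knockout points lie between -1.64 and -0.43, and Crebbp-knockout replicate 3 is the highest library in 12 of the 13 rows.

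A group of 6 members belongs to melanosomes, lysosomes and other inner membranes. Gpnmb (ENSMUSG00000029816, chromosome 6, 49036546 to 49070929, plus strand), is a glycoprotein of melanosomes and lysosomes. Its libraries held 4918, 4944 and 5017 CPM in control, 4062, 4115 and 4333 in Ep300 knockout, 4581, 4277 and 4435 in Crebbp knockout and 2352, 2417 and 2219.9 in double knockout. None of the 4 groups overlapped another, except that the single knockouts overlapped each other. Its L differences were -0.25, -0.16 and -1.09 in Ep300, Crebbp and double knockout. Mlph (ENSMUSG00000026303, chromosome 1, 90915085 to 90951142, plus strand), or melanophilin, links Rab27a on the melanosome to the motor myosin Va. Its control libraries held 179.7, 167 and 186 CPM, Ep300 knockout 134, 141 and 161, Crebbp knockout 173, 170.1 and 162 and double knockout 83.8, 88.3 and 86.0. Ep300-knockout libraries were all under the controls, and Crebbp-knockout libraries overlapped them. Its upstream window holds the E-box CACGTG shown above.

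Chmp6 (ENSMUSG00000025371, chromosome 11, 119913441 to 119919548, plus strand), an ESCRT-III subunit for budding into multivesicular bodies, had the deepest fall of the members, -1.38. It held 91.7, 119.5 and 99.2 CPM in control, 88.8, 95.7 and 81.3 in Ep300 knockout, 78.5, 82.7 and 97.7 in Crebbp knockout and 40.9, 37.1 and 40.5 in double knockout, with each single knockout overlapping control. Syngr1 (ENSMUSG00000022415, chromosome 15, 80091334 to 80119501, plus strand), or synaptogyrin 1, a membrane protein of synaptic-like vesicles, held 206, 279.9 and 228 CPM in control and 101, 94.0 and 98.7 in double knockout. Its single knockouts, at 213, 239.7 and 197 CPM without Ep300 and 198, 204 and 244 without Crebbp, lay inside or just under the range of the controls. Sec61b, a subunit of the channel that passes new proteins into the endoplasmic reticulum, went from 231 ± 28.1 to 112 ± 9.69 CPM. Tecpr1, which helps autophagosomes meet lysosomes, went from 218 ± 16.4 to 104 ± 5.12 CPM (SD, n = 3).

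Counts for partners of these genes stand beside shares over all 18434 tested genes. With TMM 24.6% were lower and 24.7% higher in double knockout, and plain CPM called 2616 lower and 6955 higher. In Ep300 knockout 8.83% were lower and in Crebbp knockout 1.61%. From the ESCRT-III, translocon and lysosome counts nothing is read. In the melanosome transport set, all 6 tested genes were lower in double knockout (median log2 change -1.78), all 6 in Ep300 knockout (median -0.70) and 2 in Crebbp knockout. Mlph, which the rule held within 0.3, had the smallest Ep300-knockout change of the 6. Rab27a, its direct partner, changed by -0.67 ± 0.07 in Ep300 knockout and -1.70 ± 0.08 in double knockout (SE, n = 3). Of 27 tested genes on the melanocyte lineage list, which holds Mlph and Gpnmb, 27 were lower in double knockout, 23 in Ep300 knockout and 5 in Crebbp knockout. Of 11 ESCRT-III subunits only Chmp6 was lower in double knockout, and 3 (Ist1, Chmp4b and Chmp1b) were higher. Of 6 translocon genes 3 were lower, Sec61b, Sec61g and Sec63, and Sec62 was higher. On the lysosome and autophagy list, which holds no member, 11 of 32 were lower and 4 higher with TMM, and 5 lower and 9 higher with plain CPM. Plain CPM left 24 of 27 genes lower on the melanocyte list and all 6 in melanosome transport, and gave 1 lower and 4 higher of the ESCRT-III subunits and 2 lower and 1 higher of the translocon genes.

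Secreted and signalling products were represented by Ptgds and Adamts20. Ptgds (ENSMUSG00000015090, chromosome 2, 25466709 to 25470046, minus strand), the lipocalin-type prostaglandin D synthase, came closest to the name of the group. Its libraries held 128, 129 and 131 CPM in control, 129, 129 and 122 in Ep300 knockout, 124, 117 and 144 in Crebbp knockout and 57.5, 52.0 and 55.4 in double knockout. Both single knockouts overlapped control, with L differences of -0.02 and -0.01, while double knockout stood at -1.22. Adamts20 (ENSMUSG00000022449, chromosome 15, 94270163 to 94465418, minus strand) encodes a secreted metalloprotease that pigment cell precursors need in the mouse, where its loss gives a white belt. Per kilobase of exon it had the lowest control level of the 24, 1.18 CPM, where mt-Nd1 had the highest, 4739 CPM. Its libraries held 11.3, 9.43 and 11.0 CPM in control, 9.07, 8.35 and 9.06 in Ep300 knockout, 9.49, 8.72 and 9.00 in Crebbp knockout and 4.24, 4.30 and 3.82 in double knockout. Its Ep300-knockout libraries lay under all controls and its Crebbp-knockout libraries overlapped them at their top end.

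At the plasma membrane stood Emp3, Cav2 and S100a10. Emp3 (ENSMUSG00000040212, chromosome 7, 45918023 to 45921404, minus strand), a membrane protein of the PMP22 family, held 102, 123 and 112 CPM in control, 111, 105 and 91.0 in Ep300 knockout, 92.3, 91.3 and 100.2 in Crebbp knockout and 46.7, 45.5 and 47.0 in double knockout. The Crebbp-knockout libraries were all under the controls, by -0.25 as L difference. Its relatives Emp1 and Pmp22 were lower in double knockout too, by -0.89 ± 0.12 and -0.45 ± 0.07 (SE, n = 3), while with plain CPM 2 of these 3 genes were called lower. Cav2, a caveolin, went from 320.2 ± 32.3 CPM in control to 155 ± 12.2 in double knockout (SD, n = 3), whereas Cav1, its partner in caveolae, rose by 0.76 ± 0.08 in log2 (SE, n = 3, edgeR adjusted p = 1.35e-06). S100a10, the annexin A2 partner that the calpactin complex is built on, held 116, 142 and 129.6 CPM in control and 62.9, 55.4 and 66.8 in double knockout. Annexin A2 itself, Anxa2, was not called in double knockout, with a log2 change of 0.13 ± 0.06 (SE, n = 3, edgeR adjusted p = 0.106).

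The cytoskeleton and cilia were represented by Tubb3 and Tmem17. Tubb3 (ENSMUSG00000062380, chromosome 8, 123411424 to 123422015, plus strand), a beta-tubulin typical of neurons, held 92.2, 87.8 and 87.5 CPM in control, 73.8, 73.1 and 79.7 in Ep300 knockout, 83.3, 82.7 and 79.7 in Crebbp knockout and 44.1, 41.3 and 41.0 in double knockout. Every library of each knockout lay below all controls. Of 7 tested beta-tubulins, Tubb3 and Tubb5 were lower in double knockout and Tubb6 was higher with TMM, and 1 was lower and 3 higher with plain CPM. Over all tested genes 24.6% were lower and 24.7% higher with TMM, so nothing is read from these few genes. The gene Mc1r, the receptor for melanocyte-stimulating hormone, lies near Tubb3 and went from 87.4 ± 2.53 to 22.7 ± 0.939 CPM (SD, n = 3). Tmem17, a protein of the ciliary transition zone, went from 24.3 ± 3.57 CPM in control to 11.5 ± 1.06 in double knockout.

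Nuclear and nucleotide functions covered H2afz, Mxd3, Chek2 and Dnph1. H2afz (ENSMUSG00000037894, chromosome 3, 137864487 to 137866922, plus strand) encodes the histone variant H2A.Z, which marks promoters and enhancers. It held 639, 797 and 732 CPM in control, 635, 658 and 584 in Ep300 knockout, 692, 669 and 948 in Crebbp knockout and 357, 299.9 and 347 in double knockout. Crebbp-knockout replicate 3 was the highest of the 12 libraries, and the double-knockout libraries were the lowest. The related variant gene H2afv was not called in double knockout (-0.20 ± 0.11, SE, n = 3, edgeR adjusted p = 0.142). Mxd3, a MAX partner that competes with MYC, went from 26.2 ± 4.15 to 12.2 ± 1.16 CPM (SD, n = 3). Its relative Mxd1 rose by 1.19 ± 0.10 in log2 (SE, n = 3, edgeR adjusted p = 8.34e-08). Chek2, the checkpoint kinase downstream of ATM, went from 49.8 ± 6.00 to 24.2 ± 0.956 CPM. Of 27 tested genes on the DNA repair list, Chek2 included, 11 were lower and 6 higher in double knockout with TMM. With plain CPM 4 were lower and 6 higher. Shares over all tested genes with TMM were 24.6% lower and 24.7% higher, and nothing is read from this list. Dnph1, which breaks down a modified deoxynucleotide, went from 77.5 ± 10.7 to 38.2 ± 1.46 CPM, with 79.7 ± 9.84 in Crebbp knockout (SD, n = 3).

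Ubiquitin pathways were represented by Trim63, Wsb2 and Cops9. Trim63 encodes the ubiquitin ligase MuRF1, best known from wasting muscle, and its upstream window holds TCATGTG. It went from 21.9 ± 0.875 CPM in control through 17.8 ± 1.53 in Ep300 knockout and 19.4 ± 1.23 in Crebbp knockout to 10.5 ± 0.623 in double knockout (SD, n = 3). Wsb2, a SOCS-box substrate receptor, went from 183 ± 4.27 to 90.6 ± 0.774 CPM, and each single knockout had all its libraries below the controls. Cops9, a small subunit of the COP9 signalosome, went from 315 ± 52.0 to 157 ± 15.4 CPM. Of 10 signalosome genes 3 were lower and 1 higher in double knockout with TMM, and 1 lower and 3 higher with plain CPM. Among all tested genes 24.6% were lower and 24.7% higher with TMM, so nothing is read from these counts. Lrrc75b (ENSMUSG00000046807, chromosome 10, 75550123 to 75560330, minus strand) held 12.2, 11.6 and 12.5 CPM in control, 9.28, 10.2 and 12.7 in Ep300 knockout, 12.2, 12.0 and 11.8 in Crebbp knockout and 4.57, 5.34 and 4.90 in double knockout. Its Crebbp-knockout libraries lay within the range of the controls, 2 of the 3 Ep300-knockout libraries lay below it and the third above.

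Most members had compact genes. The rule did not name length, but the values it used moved with length, as given below. Members were also more abundant, with a median control level of 129 CPM against 38.6 over all 9472 genes. Their median span in the annotation was 8258 bases, against 45410 for the other 338 falling genes and 26336 for all 9472 genes. Of the 24, 16 (66.7%) had a span under 11730 bases, the first quartile of all genes, and 15.4% of the other falling genes did. Median summed exon length was 2401 bases against 4500 and 4789. The median number of exon blocks, with overlapping exons of all transcripts merged, was 4 against 11 and 10. Median GC content of the longest transcript was 53.2% against 48.5% and 48.8%. Exceptions were Adamts20, with a span of 195256 bases and 41 exon blocks, and Tecpr1, with the longest exon sequence, 12772 bases.

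Length also moved with the double knockout over all genes. The median L difference in double knockout was -0.19 in the shortest quartile of exon length and 0.11 in the longest, with -0.04 and 0.05 between them. In Ep300 knockout these medians ran from -0.03 to 0.01, and in Crebbp knockout from -0.03 to 0.03. After each library was corrected for exon length and GC content, the members' double-knockout differences ran from -1.48 to -0.89, and 13 of 24 still met the rule. The part of length in the members' fall was not tested beyond this.

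**Figure D5:**
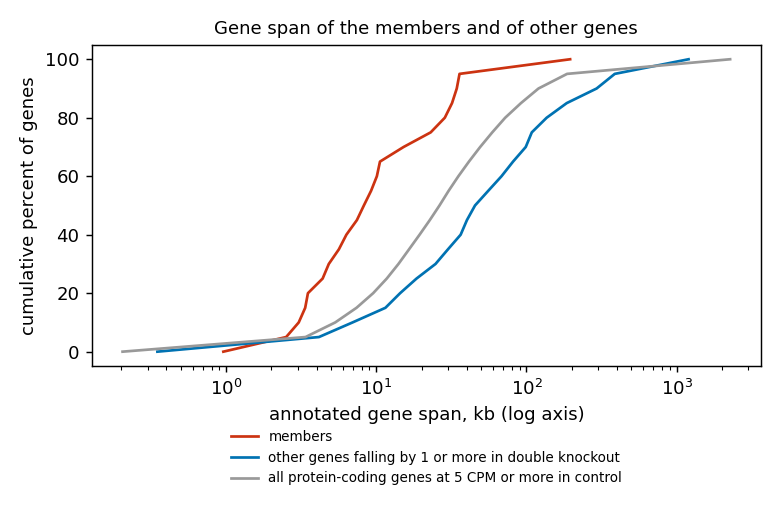
Curves give the cumulative percent of genes (vertical axis) with an annotated span up to a given size (horizontal axis, kilobases, log scale), read at every 5 percent of genes. The 24 members in red lie left of the other 338 falling genes in blue and of all 9472 genes in grey over most of the range, with medians of 8258, 45410 and 26336 bases.

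Reads of overlapping genes may be mixed for some members, since the strand setting of the counting is not given in the sources used here. Syngr1 overlaps Rpl3 on the opposite strand, which was lower in double knockout (-0.58 ± 0.10, SE, n = 3, edgeR adjusted p = 0.000148), and Wsb2 overlaps Rfc5 (-0.43 ± 0.07, SE, n = 3, edgeR adjusted p = 0.000157). Timm10b overlaps Arfip2, and Mxd3 overlaps Prelid1, which were not called in double knockout (edgeR adjusted p = 0.272 and 0.0721). Tubb3, Timm10b and Dnph1 each overlap a predicted gene on the same strand, and Wsb2 has a named pseudogene, so these levels are less certain.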

How the data were processed

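RNA of 12 B16F10 libraries was measured with the KAPA Stranded mRNA-Seq kit. Per the submitters' processing notes, the authors used bcl2fastq, HISAT2, HTSeq and build mm10, and deposited raw counts per Ensembl gene for 54752 rows. For tool versions, strand setting and annotation release, the entry is: not given in the sources used here. A GENCODE annotation of the same build gave symbols, biotypes, positions and lengths to 54723 rows.

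Genes were filtered with filterByExpr (18434 left), scaled with TMM computed on these genes, and tested by glmQLFTest of edgeR after a robust quasi-likelihood fit. All 12 libraries entered with group as the only term, and p-values were adjusted by Benjamini-Hochberg with a threshold of 0.05. Software was DESeq2 1.42.0, edgeR 4.0.16 and limma 3.58.1 under R 4.3.3. The tests were checked on simulated counts. Replicates of a group differed beyond sampling noise (chi-square per gene 10.3 to 129), so none was a repeat deposit.

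The members and lists were chosen with earlier results of these data known. The rule was run with TMM over the whole table (22 members) and over the filtered genes (24 members) before the second was kept, since it matches the tests. Genes were named by rank of fall, abundance and function, and relatives of the members after their values were seen. Alternatives covered scaling, pseudocount, limits of the rule, tools, filters, gene length and GC content, the replicate block and leaving out libraries.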

Additional observations from a re-analysis of the deposited data

How the results depend on the processing

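The number of members, 24 as reported, was 14 with plain CPM, 4 with a single-knockout limit of 0.2, 62 with a limit of 0.4, 85 with a fall of -0.8, 7 with a fall of -1.2, and 15 without control replicate 2 and Crebbp-knockout replicate 3 together, a setting added after the data were seen. Left out 1 at a time, libraries gave 13 (without Crebbp-knockout replicate 3) to 30 members (without Crebbp-knockout replicate 2). RLE size factors gave 24, other pseudocounts 24 and 26, other control minimums 24 and 25, the mean of log2 values 22, edgeR log2 fold changes 26, and 22 came with TMM over the whole table. Length and GC correction gave 27 genes, with 13 of the 24 among them. Of 504 readings of single members in double knockout under these settings, 478 moved by less than the spread between replicates, 26 moved further and 0 changed sign, with a range of -1.48 to -0.76. The held-out share was 65.1%, 65.6% with RLE and 62.5% with a pseudocount of 1.

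Genes called in Crebbp knockout against control numbered 577, and 1265 with DESeq2, 1270 with no low-count filter, 1068 with length and GC offsets, 257 with only the groups compared, and 214 (without Crebbp-knockout replicate 2) to 774 (without Ep300-knockout replicate 3) with a library left out. Genes called beyond additivity numbered 1897, and 1119 (without double-knockout replicate 2) to 2861 (without control replicate 2). The corresponding ranges were 7653 to 9493 around 9102 in double knockout and 2276 to 3204 around 2969 in Ep300 knockout. With the replicate block the counts were 8475 in double knockout, 2521 in Ep300 knockout, 321 in Crebbp knockout and 1345 beyond additivity. Deviations of same-numbered libraries correlated over 0.1 in 6 of 18 pairs, with r from -0.79 to 0.69 (mean r -0.15). Differently numbered libraries had a mean r of 0.07. Deviations from a group mean cancel within each group, so this check cannot settle whether equal numbers were paired. The cause of these movements was not tested.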
